A study of Mus musculus with 11 samples.

Results

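The genes described here encode the degradative machinery of the lysosome, measured in EpCAM+ cells grown from mouse bone marrow monocytes. They are 46 of the 21860 genes in the table and were chosen by symbol for their role in the lysosome, with earlier results of these data known. The set holds 9 cathepsins, 19 other hydrolases, 3 cofactors and inhibitors of these enzymes, 6 parts of the proton pump, 6 membrane proteins and the 3 transcription factors of the MiT/TFE family. To be tested, a gene had to reach 10 normalized counts in at least 2 samples, and 45 of the 46 did. The exception was Ctsk, the collagen-degrading cathepsin of osteoclasts, which lay between 0 and 15.9 normalized counts.

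Lysosomes are acidic compartments in which proteins, glycans, lipids and nucleic acids taken up from outside or delivered by autophagy are broken down. A vacuolar proton pump keeps the lumen acidic, the hydrolases work at that pH, and heavily glycosylated membrane proteins shield the limiting membrane. In phagocytes and Langerhans cells the same enzymes cut antigen and the invariant chain for presentation on MHC class II, and the MiT/TFE factors drive many lysosomal genes through a short E-box element in their promoters.

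Bulk RNA sequencing was performed on 11 samples of CD11b-low EpCAM+ cells sorted on day 6 of culture. EpCAM, a surface adhesion protein, marks Langerhans cells of the epidermis, and the cultures were set up to find out how a Notch ligand and a ligand of the aryl hydrocarbon receptor (Ahr) together shape monocyte-derived Langerhans-like cells. All 11 cultures received GM-CSF (20 ng/ml), and 10 also received TGFβ (5 ng/ml) and IL-34 (8 µg/ml), the signals that steer monocytes toward Langerhans cells. The 5 groups are named by what was added. There were 3 samples each of TGFβ/IL-34/Jag1 and, with FICZ added, of TGFβ/IL-34/Jag1/FICZ, 2 each of TGFβ/IL-34 and of TGFβ/IL-34/FICZ, and 1 sample with Jag1 but neither TGFβ nor IL-34, called Jag1 only. Jagged-1 (Jag1), a Notch ligand, was presented by a derivative of OP9, a mouse bone marrow stromal line, so the ligand came together with stromal cells. The labels describe every sample as grown with the OP9 line, and the methods describe monocytes grown alone as well. The sample descriptions code the cultures with Jag1 as Jag and those without it as Mo. Of 15 stromal genes, 7 to 10 were at 0 in TGFβ/IL-34 samples, against 2 to 4 in TGFβ/IL-34/Jag1 samples. Which of these holds for the cultures without Jag1 is stated nowhere and could not be settled. FICZ is a small molecule that the study names an Ahr agonist, whereas the deposited design text names it an antagonist. The study used C57BL/6 mice among other lines, without tying a strain to these cultures. The FICZ dose and whether replicates came from separate animals are not given in the sources used here, so p-values measure the spread between these samples.

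All values below are normalized counts as the authors deposited them, with a total of 21.3 to 27.8 M in a sample. A single read corresponded to 0.897 to 1.16 of these units, estimated from steps between low values. A gene listed at 0 had no read assigned. An expected count of up to 3 reads (2.69 to 3.48 units) can still give a 0. This limit covers counting error only. Epcam was present in all 11 samples, at 657 to 14376.5 normalized counts. Cd207, the langerin gene of mature Langerhans cells, stood at 1366 to 1784 in TGFβ/IL-34/Jag1 and at 6.21 to 157 in the other 8 samples. Replicate 1 of TGFβ/IL-34/FICZ stood apart. It had the highest total, Pearson's r across genes between the 2 samples of that group was 0.922, against 0.963 to 0.980 within the other groups, and 10 of the 45 tested members lay at least 2-fold apart between them, as did 34.8% of all tested genes. This sample and TGFβ/IL-34/Jag1/FICZ replicate 1 were the 2 read on another flow cell. In sorted bulk cells, fewer cells of a type and less RNA per cell cannot be told apart.

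Lysosomal transcripts were abundant. By their mean over the 11 samples, 40 of the 45 tested members (88.9%) lay above the median level of the 13095 tested genes. All 46 together took 1.78 ± 0.0508% (SD, n = 2) of the normalized counts in TGFβ/IL-34, 1.41 ± 0.0464% (SD, n = 3) in TGFβ/IL-34/Jag1, 1.52 ± 0.0847% (SD, n = 3) in TGFβ/IL-34/Jag1/FICZ and 1.50% in the Jag1 only sample. In TGFβ/IL-34/FICZ the share was 2.14 ± 0.435% (SD, n = 2), and the wide SD came from replicate 1 with 2.45% against 1.84% in replicate 2. The 3 samples of TGFβ/IL-34/Jag1, with 1.36% to 1.46%, lay below the 2 of TGFβ/IL-34, with 1.75% and 1.82%. Much of each share was Cst3, which encodes a secreted inhibitor. It took 0.388% in the Jag1 only sample and up to 1.23% in TGFβ/IL-34/FICZ replicate 1.

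**Figure D1:**
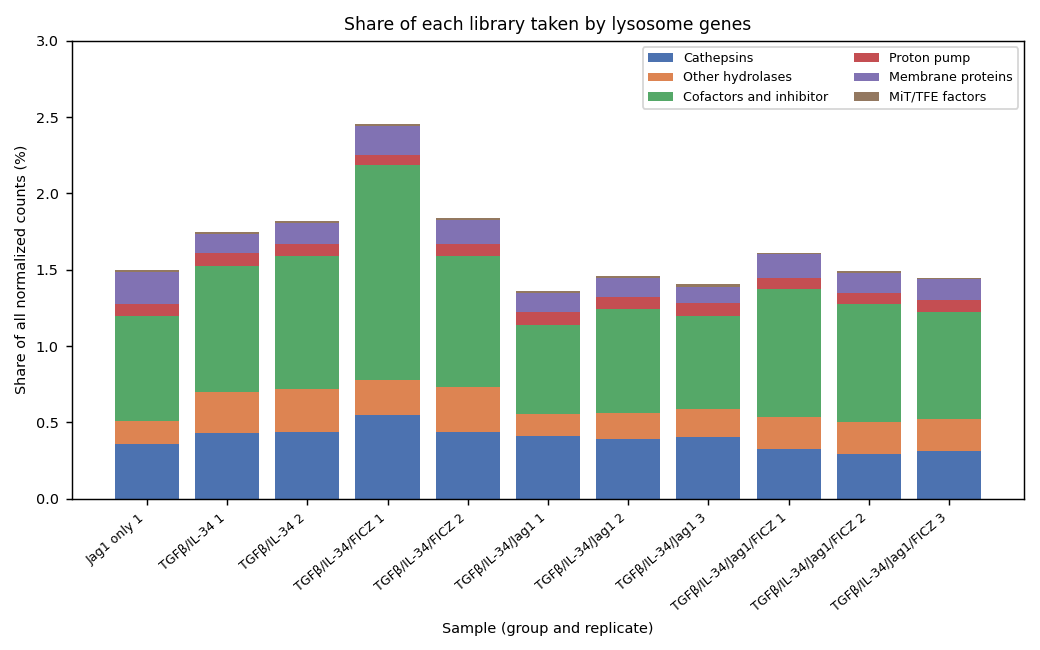
Stacked bars give the share of each sample's normalized counts, in percent, taken by the 6 sets of lysosome genes, 1 bar per sample. The bars run from 1.36% to 2.45%, the highest is TGFβ/IL-34/FICZ replicate 1, and the cofactors and inhibitor, led by Cst3, form the tallest segment in all 11.

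Per kilobase of annotated exon, averaged over the group means, Cst3 was the highest member at 81665.5 normalized counts. It encodes cystatin C, a secreted inhibitor of cysteine cathepsins. Psap, the precursor of the saposins that present lipids to lysosomal enzymes, followed at 9269, then the cathepsins Ctsz (7229.6), Ctss (3769) and Ctsd (3278), the progranulin gene Grn (3198) and Lamp1 (2716). At the other end stood Ctsk (1.22), the transcription factor Mitf (18.7) and the pump subunit Atp6v0d2 (48.6). The length counts every annotated exon of a gene, whether or not it was expressed, such as 1808 bases for Cst3 and 12695 for Lamp2. The order therefore also depends on the annotation.

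The comparison with the most called lysosome genes was FICZ with Jag1, which asks what FICZ did in cultures that already held Jag1. The membrane proteins Gpnmb and Cd68 and the hydrolases Acp5, Lgmn, Gaa, Gla and Glb1 rose, while the cathepsins Ctsb, Ctsh and Ctss, the saposin precursor Psap, the acid lipase Lipa and the factors Tfe3 and Mitf fell. In all, 14 of 45 members passed an adjusted p of 0.05 (limma, two-sided, Benjamini-Hochberg over all tested genes), 7 in each direction (10.9% of all tested genes were higher and 6.71% lower), against 17.7% of all tested genes and 15.4% of those above the median level. The median log2 fold change was −0.13 over the members and −0.01 over all tested genes. None of the 14 overlapped between the groups, which held for 27 of the 45 members and 45.1% of all tested genes. Their differences also had the same sign within each of the 3 experiment codes, as it must where groups do not overlap (Gpnmb 2.75 to 3.48 on the log2 scale). Without TGFβ/IL-34/Jag1 replicate 3, or without TGFβ/IL-34/Jag1/FICZ replicate 1, 9 members passed. Under array weights 23 passed (9 higher, 14 lower), with 4123 of 13095 genes, and in a fit of the 6 samples alone 21 (8 higher, 13 lower), with 3614 of 12721 genes.

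Jag1 without FICZ, the question of what the ligand and its stromal carrier did on their own, gave fewer calls. Gpnmb, Cd68, Acp5, Lgmn, Man2b1, Ctsl and Grn fell, and Ctsb rose. These are 8 of 45 members, against 6.6% of all tested genes (1 higher against 2.64%, 7 lower against 3.96%), with a median log2 fold change of −0.22 over the members and −0.00 over all tested genes. None of the 8 overlapped between the groups, which held for 30 members and 46.6% of all tested genes. This comparison and that of FICZ with Jag1 share the 3 TGFβ/IL-34/Jag1 samples, so opposite signs in them are not independent, and their values are given side by side. With 2 samples in TGFβ/IL-34, the count was 1 without its replicate 1 and 2 without its replicate 2, and it was 5 without TGFβ/IL-34/Jag1 replicate 1 and 5 without replicate 2 of that group. Whether the cultures without Jag1 held OP9 cells could not be settled. The ligand and the OP9 cells that carry it therefore cannot be told apart here. All 8 differences had the same sign within both experiment codes that the descriptions give to the 2 groups. The code of TGFβ/IL-34 replicate 1 differs between its description and the authors' sheet, but since none of the 8 overlapped, the sign is the same whichever code is used. Under array weights 18 members (4 higher, 14 lower) and 2627 of 13095 genes were called.

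With both stimuli together, against TGFβ/IL-34, the genes Lipa, Ctsh, Grn, Mitf and Ctsl fell and no member was called higher. That is 5 of 45, against 4.48% of all tested genes and 1.37% for falls alone, with a median log2 fold change of −0.33 over the members and 0.01 over all. The groups did not overlap in 38 members and 54.2% of all tested genes. In several other settings more passed, and in most of these at least 1 rose. Quantile normalization called 8 members (1 higher, 7 lower) and 712 of 13095 genes. The replicate block called 7 members (1 higher, 6 lower) and 652 genes, and flow cell as a term 7, all lower, and 489 genes. Under array weights 26 members (5 higher, 21 lower) and 3558 of 13095 genes were called, and in a fit of the 5 samples alone also 26 members (5 higher, 21 lower), with 3053 of 12606 genes. Leaving out any 1 of the 5 samples left 0 calls (without either TGFβ/IL-34 sample) or 1 (without any of the TGFβ/IL-34/Jag1/FICZ samples). Jag1 with FICZ, against TGFβ/IL-34/FICZ, was lower in Ctsl, Psap, Ctsh and Grn, 4 of 45 members against 2.02% of all tested genes and 0.603% for falls alone, with medians of −0.41 and 0.05. In 20 members and 35.8% of all tested genes these groups did not overlap. Under array weights, or in a fit of those 5 samples alone, none passed. Without TGFβ/IL-34/FICZ replicate 1, the sample that stood apart, 4 members passed, Grn no longer among them, without replicate 2 of that group 28 members and 5827 genes in all passed, and without any 1 of the TGFβ/IL-34/Jag1/FICZ samples 1 member did.

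FICZ without Jag1 gave no call among the members by limma, against 0.0229% of all tested genes. At an unadjusted p under 0.05 there were 12 of 45, against 17.4% of all tested genes, and in 21 the groups did not overlap, against 45.7%. The 12 were Ctsl, Cd68, Gaa, Hexa, Lgmn, Acp5, Lipa, Tpp1, Gpnmb, Mitf, Cd63 and Glb1. The lowest adjusted p was that of Ctsl (log2 fold change 0.71, SE 0.17, adjusted p = 0.234). Without TGFβ/IL-34/FICZ replicate 2, so that the sample that stood apart carried the group alone, 30 members and 5734 genes passed. The interaction, which tests whether the FICZ effect differed with and without Jag1, called Ctsb and Gpnmb, 2 of 45 against 1.39% of all tested genes. It called 5 members without TGFβ/IL-34/FICZ replicate 1, 24 without replicate 2 of that group and 0 without any 1 of the other 8 samples. Among the genes above the median level, where most members lie, the shares called were 5.82% for Jag1 without FICZ, 0.0305% for FICZ without Jag1, 4.03% for both together, 2.12% for Jag1 with FICZ and 1.31% for the interaction.

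**Figure D2:**
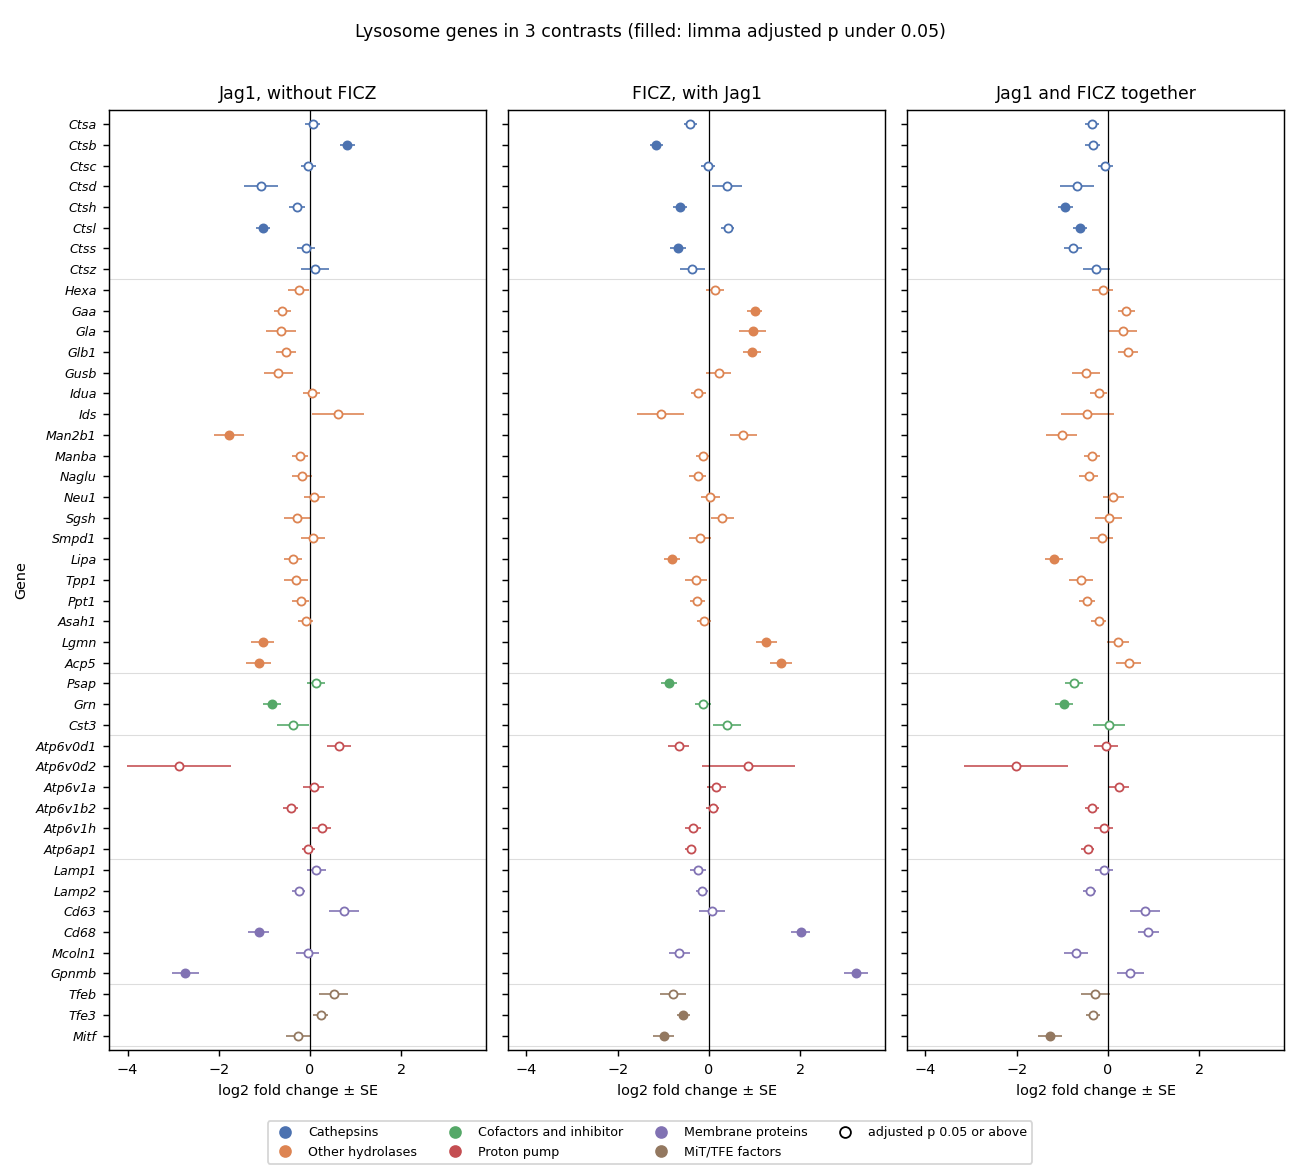
Points give the log2 fold change of each of the 45 tested members on the log2(normalized count + 1) scale, with bars of 1 SE, in 3 comparisons named above the panels. Filled points passed a limma adjusted p of 0.05, and Gpnmb is the outermost filled point both on the left of the first panel (−2.74) and on the right of the second (3.23).

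Among the 8 tested cathepsins, 3 fell in FICZ with Jag1, beside 6.71% of all tested genes. In Jag1 without FICZ 1 rose and 1 fell, beside 2.64% and 3.96%. With both stimuli together 2 fell, beside 1.37%, and in Jag1 with FICZ 2 fell, beside 0.603%. Ctsb encodes cathepsin B, a cysteine protease that cuts both within chains and from their ends (GRCm39 chr14:63358384-63383372, plus strand). Its normalized counts were 17520.2, 17671 and 17750.3 in TGFβ/IL-34/Jag1, 10559 and 9514 in TGFβ/IL-34, 10609.9 and 8883 in TGFβ/IL-34/FICZ, 8351, 7286 and 8155 in TGFβ/IL-34/Jag1/FICZ and 15863 in the Jag1 only sample. The 3 samples with TGFβ, IL-34 and Jag1 but no FICZ were thus the highest of the 11, and the 3 that also had FICZ the lowest. It rose with Jag1 (log2 fold change 0.82, SE 0.16, adjusted p = 0.0128) and fell with FICZ in the presence of Jag1 (log2 fold change −1.16, SE 0.14, adjusted p = 0.000434), to a mean 2.23-fold lower. The call for Jag1 was lost without either TGFβ/IL-34 sample (up to an adjusted p of 0.187 over 5 such fits), whereas the call for FICZ held in all 6. The FICZ effect with Jag1 was lower than that without it by 1.11 on the log2 scale (interaction, SE 0.22, adjusted p = 0.0439), a call lost without any 1 of the 8 samples outside TGFβ/IL-34/FICZ (up to an adjusted p of 0.291) and under 6 of 10 other settings.

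Ctsl, cathepsin L, which degrades endocytosed protein and the invariant chain, took another course. Its counts were 6192 and 5499 in TGFβ/IL-34, 10681 and 8534 with FICZ, 2742, 2858 and 2971 with Jag1, 3826, 3641 and 3896 with both and 1382 in the Jag1 only sample. All 7 samples with Jag1 lay below the 4 without it. The fall with Jag1 passed without FICZ (log2 fold change −1.03, SE 0.15, adjusted p = 0.00332), with FICZ (log2 fold change −1.33, SE 0.15, adjusted p = 0.00438) and for both stimuli together (log2 fold change −0.62, SE 0.15, adjusted p = 0.0489). The call with FICZ was lost under array weights and in a fit of those 5 samples alone (up to an adjusted p of 0.289), the call without FICZ was lost without TGFβ/IL-34 replicate 1 (adjusted p = 0.0601), and the call for both was lost in all 5 fits without a sample (adjusted p 0.118 to 0.405) and in 4 other settings. In FICZ with Jag1 it was not called (adjusted p = 0.0681).

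Ctsh, an aminopeptidase, stood at 8089 and 7587 in TGFβ/IL-34, 7551 and 7637 with FICZ, 5286, 7007 and 7064 with Jag1 and 3719, 4381 and 4241 with both. The 3 samples with both stimuli were the lowest of the 11. It fell with FICZ in the presence of Jag1 (log2 fold change −0.64, SE 0.15, adjusted p = 0.0166) and with both stimuli together (log2 fold change −0.93, SE 0.17, adjusted p = 0.0168), but the former call was lost without TGFβ/IL-34/Jag1 replicate 2 or 3 or TGFβ/IL-34/Jag1/FICZ replicate 1 (up to an adjusted p of 0.0852), and the latter without any 1 of its 5 samples (adjusted p 0.0518 to 0.191). Against TGFβ/IL-34/FICZ its fall also passed (log2 fold change −0.89, SE 0.17, adjusted p = 0.0309), and it did not without any 1 of the TGFβ/IL-34/Jag1/FICZ samples (up to an adjusted p of 0.131).

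Ctss, the cathepsin that completes invariant chain removal in antigen-presenting cells, was at 23239.9 and 22811 in TGFβ/IL-34, 29167 and 20783 with FICZ, 22297, 19522 and 23521 with Jag1, 13755, 12399 and 14487 with both and 16644 in the Jag1 only sample. Here too the samples with both stimuli were the lowest. The difference passed for FICZ with Jag1 (log2 fold change −0.68, SE 0.17, adjusted p = 0.0209), where it was called in 1 of 6 fits without a sample, the one without TGFβ/IL-34/Jag1 replicate 2 (adjusted p 0.0348 to 0.102). For both stimuli together and for Jag1 with FICZ it missed the threshold (adjusted p = 0.0536 and 0.0538).

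The other 4 tested cathepsins passed in no comparison. Ctsd, the aspartic protease, lay at 3997 to 4507 in TGFβ/IL-34/Jag1, below every other sample, but its 2 TGFβ/IL-34/FICZ samples were 3.03-fold apart (24884 and 8216) and the difference between the TGFβ/IL-34/Jag1 samples and those of TGFβ/IL-34 was not called (log2 fold change −1.08, SE 0.37, adjusted p = 0.128), nor was that in Jag1 with FICZ (adjusted p = 0.0935). Ctsc, which activates the serine proteases of granules, stayed within a 1.51-fold range over the 11 samples. Ctsa, the carboxypeptidase that protects β-galactosidase and sialidase, ranged from 3978 to 7277 (adjusted p = 0.0765 in FICZ with Jag1 and 0.0723 in Jag1 with FICZ), and Ctsz, a carboxypeptidase, from 18704 to 55849 with the highest value again in TGFβ/IL-34/FICZ replicate 1.

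Of the 19 other hydrolases, 6 passed in FICZ with Jag1, beside 17.7% of all tested genes, and 5 of the 6 were higher, beside 10.9%. Lgmn encodes legumain, an asparagine-specific endopeptidase that processes cathepsins (GRCm39 chr12:102359122-102414682, minus strand). It had 2556, 2290.1 and 2397 normalized counts in TGFβ/IL-34/Jag1 and 6378, 5703 and 5261 once FICZ was added. TGFβ/IL-34 held 4849 and 5051, TGFβ/IL-34/FICZ 12246 and 6180.0 and the Jag1 only sample 7414. Each of the 3 samples with TGFβ, IL-34 and Jag1 was below every other sample. Lgmn fell with Jag1 (log2 fold change −1.04, SE 0.25, adjusted p = 0.0341) and rose with FICZ in its presence (log2 fold change 1.26, SE 0.22, adjusted p = 0.00322). The fall was lost without any 1 of its 5 samples (adjusted p 0.0781 to 0.255), without the filter and under the replicate block (up to an adjusted p of 0.0627), while the rise kept its call in all 6 fits without a sample and all 10 other settings.

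Acp5, tartrate-resistant acid phosphatase, an enzyme best known from osteoclasts and activated macrophages, was at 380.5, 477 and 804 in TGFβ/IL-34/Jag1 and 1599.6, 1504 and 1632 in TGFβ/IL-34/Jag1/FICZ. Without Jag1 it was at 1113 and 1191 in TGFβ/IL-34 and 2426 and 1986 with FICZ, and the Jag1 only sample had 978. The groups with FICZ were above those without it whether or not Jag1 was present. The rise with FICZ passed with Jag1 (log2 fold change 1.58, SE 0.24, adjusted p = 0.00155), 2.85-fold between the means. Without Jag1 it was not called (log2 fold change 0.93, SE 0.30, adjusted p = 0.285). Its fall with Jag1 (log2 fold change −1.13, SE 0.27, adjusted p = 0.0359) passed in 1 of 5 fits without a sample, the one without TGFβ/IL-34/Jag1 replicate 3 (adjusted p 0.0045 to 0.272), and was lost without the filter, with experiment code as a term and in a fit of the 5 samples alone.

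The 3 enzymes Gaa, Glb1 and Gla, which remove terminal sugars, rose in FICZ with Jag1. Gaa, acid α-glucosidase, which degrades glycogen, went from 1363, 1195 and 1211 to 2858, 2512 and 2218 (log2 fold change 1.00, SE 0.16, adjusted p = 0.00209). Glb1, β-galactosidase, went from 2007, 1668 and 1928 to 3994, 3407 and 3414 (log2 fold change 0.95, SE 0.20, adjusted p = 0.00744). Gla, α-galactosidase A, which acts on globotriaosylceramide, went from 274, 204 and 186 to 452, 469 and 359.5 (log2 fold change 0.95, SE 0.29, adjusted p = 0.0456). In each the lowest sample with FICZ was above the highest without it. Gaa and Glb1 were called in all 6 fits without a sample. Gla was called in 1, that without TGFβ/IL-34/Jag1 replicate 1 (adjusted p 0.0483 to 0.156), and not under quantile normalization, without the filter or with flow cell as a term. Without Jag1, the TGFβ/IL-34 and TGFβ/IL-34/FICZ samples held 1879 and 1937 against 3156 and 2294 for Gaa, 2816 and 2529 against 5159.9 and 3045 for Glb1 and 312 and 371 against 845 and 395 for Gla, and none of the 3 was called there. In Jag1 without FICZ the fold change of Gaa missed the threshold (log2 scale, −0.60, adjusted p = 0.0858).

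The MiT/TFE element can be shown on these genes. In promoter windows of 300 bases (250 before to 50 after a RefSeq transcript start, build GRCm38.p6), 40 of the 46 members had an entry. The E-box CACGTG, searched on both strands, lay in 13 of these 40 (32.5%), in 11.4% of the tested genes with a window and in 8.09% of 27025 genes. Its extended form TCACGTG, which always contains the E-box, lay in 12 (30%), 6.75% and 4.29%. Of the 7 members that rose in FICZ with Jag1, Gaa, Gla, Glb1 and Lgmn held TCACGTG. Of the 5 with a window among the 7 that fell, none did. This split follows the calls of these same data. The other holders of TCACGTG were Ctsa, Ctsd, Naglu, Sgsh, Mcoln1, Lamp1, Atp6v0d1 and Atp6v1a, which were called in no comparison. Among them, Ctsa, Mcoln1 and Atp6v0d1 stood lower in FICZ with Jag1 without overlap, and Ctsd stood higher without overlap. Below are the stretches around the E-box in Gaa, Gla, Glb1 and Lgmn, and in Lamp1, which held 4 copies. Only 6 of the 27025 genes had 4 or more copies. Sequences are RefSeq GRCm38.p6, 5′ to 3′ on the gene's strand, with CACGTG in capitals.
Gaa (chr11:119267803-119267848, plus strand): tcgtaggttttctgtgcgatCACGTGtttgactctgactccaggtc
Gla (chrX:134601174-134601252, minus strand): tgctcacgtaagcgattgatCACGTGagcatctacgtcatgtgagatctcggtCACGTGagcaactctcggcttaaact
Glb1 (chr9:114401010-114401055, plus strand): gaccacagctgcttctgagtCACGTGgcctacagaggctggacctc
Lgmn (chr12:102439116-102439161, minus strand): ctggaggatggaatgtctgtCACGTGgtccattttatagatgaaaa
Lamp1 (chr8:13159080-13159160, plus strand): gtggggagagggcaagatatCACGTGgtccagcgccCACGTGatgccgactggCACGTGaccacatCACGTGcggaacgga

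The first base of the E-box lay 140 bases before the start in Gaa, 227 and 194 in Gla, 48 in Glb1 and 49 in Lgmn. In Lamp1 the copies began 61, 45, 28 and 15 bases before it. Gpnmb, Cd68 and Acp5, the 3 other members that rose, had no CACGTG in their windows, and 1 window of Acp5 held the related M-box TCATGTG, found in 7 of the 40 members (17.5%) and 4.31% of all genes. The Ahr core GCGTG was in 16 of 40 members (40%), 54.3% of tested genes and 35.2% of all genes. A match is only a run of letters and was not tested as a binding site.

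Among the remaining hydrolases Lipa, the acid lipase that frees cholesterol from lipoprotein esters, fell with FICZ in the presence of Jag1 (log2 fold change −0.81, SE 0.17, adjusted p = 0.00845) and with both stimuli together (log2 fold change −1.18, SE 0.19, adjusted p = 0.00856). Its counts were 1733 and 1817 in TGFβ/IL-34, 928 and 1358 with FICZ, 1229.6, 1376 and 1511 with Jag1 and 763, 766 and 816 with both, so that the 3 samples with both were the lowest of the 11. The call for both together was lost without either TGFβ/IL-34 sample (up to an adjusted p of 0.112). Man2b1, a lysosomal α-mannosidase, fell with Jag1 (log2 fold change −1.77, SE 0.33, adjusted p = 0.0112), from 20099 and 20756 to 3953, 6759 and 8040.3. With both stimuli it stood at 8992, 10370.0 and 10984, between those groups, and with FICZ alone its 2 samples were far apart, at 10487 and 20962. The call of Man2b1 was lost without TGFβ/IL-34 replicate 1 or replicate 2 (up to an adjusted p of 0.117).

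The other 12 hydrolases passed in no comparison. They were Hexa and Gusb, Ids, Idua, Naglu and Sgsh of glycosaminoglycan breakdown, Manba and Neu1 of glycoprotein breakdown, Smpd1 and Asah1 of sphingolipid breakdown, and the neuronal storage disease genes Tpp1 and Ppt1. Hexa, the α subunit of β-hexosaminidase, had 12264 and 6697 in TGFβ/IL-34/FICZ and 5258, 4914 and 4889 in TGFβ/IL-34/Jag1/FICZ (adjusted p = 0.0876). Asah1, acid ceramidase, varied least over the 11 samples (1.34-fold), and Ids, iduronate sulfatase, most (9.49-fold). The lowest Ids value, 398, was that of TGFβ/IL-34/FICZ replicate 1, against 2644 in replicate 2. In FICZ with Jag1, Ids went from 3367, 3774 and 3679.9 to 1483, 1892 and 1834 without a call (log2 fold change −1.06, SE 0.51, adjusted p = 0.201).

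**Figure D3:**
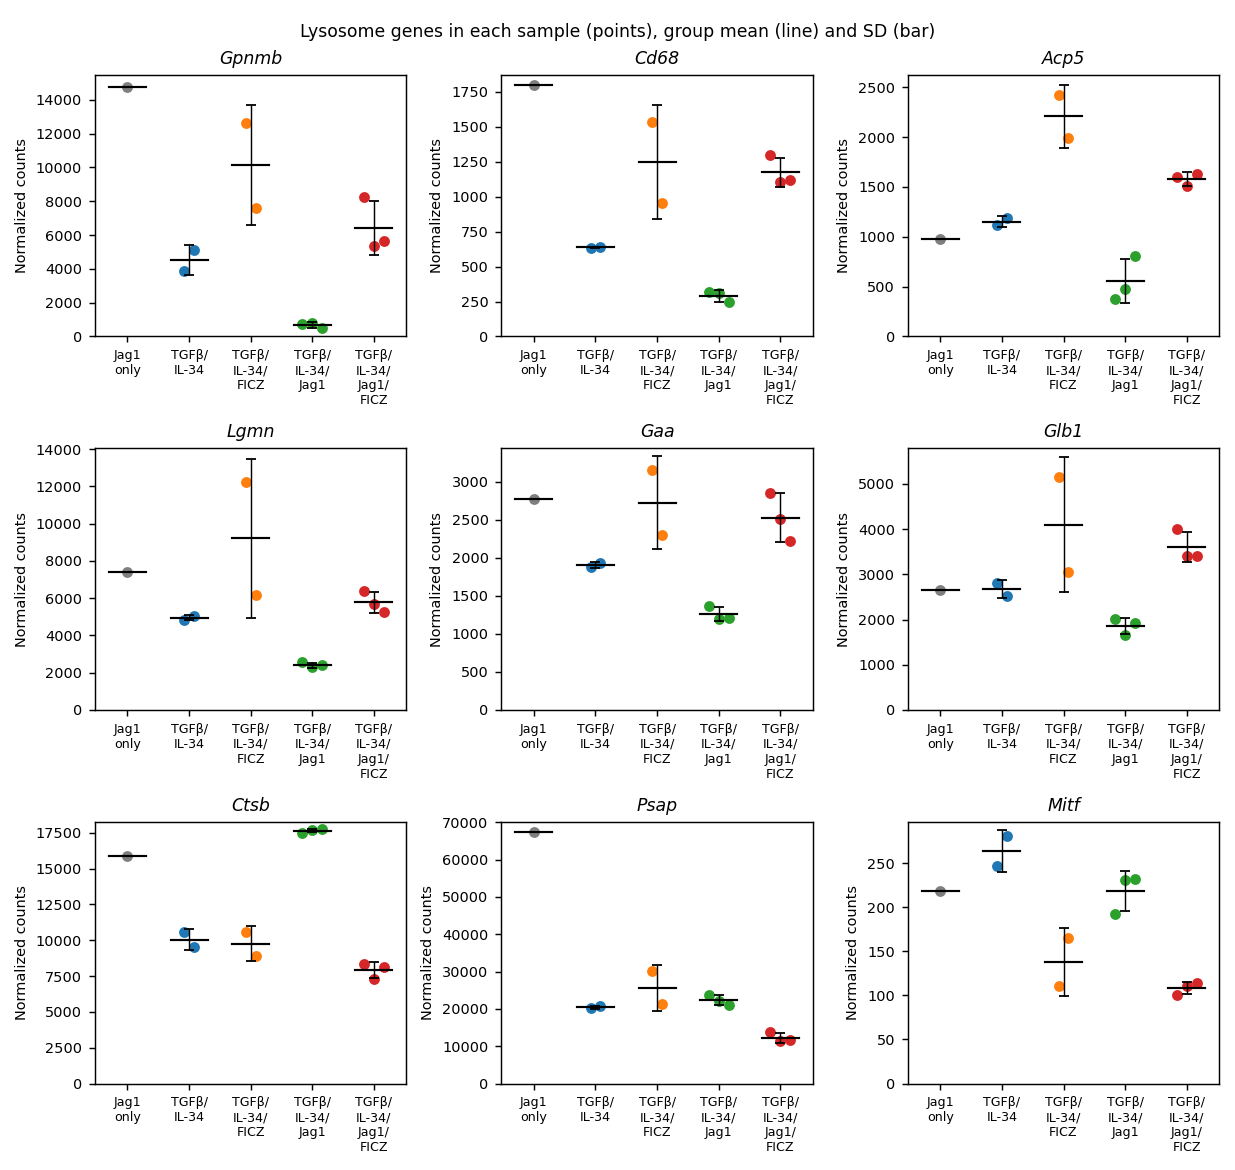
Each panel plots the normalized counts of 1 member in the 11 samples, grouped by culture, with lines at the group means and bars of 1 SD. In Gpnmb, Cd68, Lgmn, Gaa and Glb1 the 3 TGFβ/IL-34/Jag1 samples are below all others, in Ctsb they are above all others, and in Ctsb and Psap the 3 TGFβ/IL-34/Jag1/FICZ samples are the lowest.

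Psap and Grn, but not Cst3, passed in some comparison. Psap had 23830.0, 22026 and 21067 in TGFβ/IL-34/Jag1, 13669, 11293 and 11688 with FICZ added, 20192 and 20765 in TGFβ/IL-34 and 30049 and 21304 in TGFβ/IL-34/FICZ. The 3 samples with both stimuli lay under the other 8. It fell in FICZ with Jag1 (log2 fold change −0.87, SE 0.17, adjusted p = 0.00628), in all 6 fits without a sample, and in Jag1 with FICZ (log2 fold change −1.06, SE 0.19, adjusted p = 0.0269), where the call was lost without any 1 of the TGFβ/IL-34/Jag1/FICZ samples (up to an adjusted p of 0.124). For both stimuli against TGFβ/IL-34 its adjusted p was 0.0593. Its interaction term was −1.18 (SE 0.27, adjusted p = 0.0735).

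Grn, the precursor of granulins, which are needed for the activity of several lysosomal enzymes, separated by Jag1. Its 4 samples without Jag1 were at 18506 and 18438 in TGFβ/IL-34 and 18729 and 17944 in TGFβ/IL-34/FICZ. With Jag1 it was at 8156, 11063 and 12375, with both stimuli at 8924, 8992 and 10627, and in the Jag1 only sample at 5269.9, the lowest of the 11. The fall with Jag1 passed without FICZ (log2 fold change −0.83, SE 0.20, adjusted p = 0.0327), with FICZ (log2 fold change −0.95, SE 0.20, adjusted p = 0.0408) and for both stimuli together (log2 fold change −0.96, SE 0.20, adjusted p = 0.0244). The first call held in 1 of 5 fits without a sample, the one without TGFβ/IL-34/Jag1 replicate 3 (up to an adjusted p of 0.241), and was lost with experiment code as a term, the second in 1, without TGFβ/IL-34/FICZ replicate 2 (up to 0.163), and the third in none (up to 0.221). FICZ left no called difference in Grn with Jag1 (log2 fold change −0.13, SE 0.18, adjusted p = 0.697). Cst3 was called nowhere and ranged from 93973 to 343543, the highest in TGFβ/IL-34/FICZ replicate 1.

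None of the 6 proton pump genes passed in any of the 6 comparisons. In FICZ with Jag1, Atp6v0d1 (d subunit of the membrane sector) went from 6809, 5424 and 5932 to 3768, 3499 and 4139 and Atp6ap1 (an accessory subunit) from 4062, 4531 and 4517 to 3424, 3232 and 3223. These groups did not overlap, as in 45.1% of all tested genes, and the adjusted p values of 0.0751 and 0.0547 missed the threshold. The cytosolic subunits Atp6v1a, Atp6v1b2 and Atp6v1h varied 2.57-fold, 1.59-fold and 1.64-fold over all samples. Atp6v0d2, an alternative d subunit known from osteoclasts, had the widest fold range of the 45 tested members. It was at 456.5 in the Jag1 only sample, 60.2 and 187 in TGFβ/IL-34 and 2.94 to 67.9 elsewhere. The highest value came from a single sample and the lowest lay near the limit of 3 reads, so the size of this range is uncertain. Atp6v0d2 was not called (Jag1 without FICZ, log2 fold change −2.88, SE 1.14, adjusted p = 0.195).

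The largest called differences lay in the membrane proteins. Gpnmb encodes a transmembrane glycoprotein of macrophage lysosomes and melanosomes, known as a marker of lipid-laden phagocytes (GRCm39 chr6:49013426-49047863, plus strand). It had 3896 and 5138 normalized counts in TGFβ/IL-34, 750.0, 797 and 505 in TGFβ/IL-34/Jag1, 8240.1, 5357 and 5634 in TGFβ/IL-34/Jag1/FICZ, 12647 and 7619 in TGFβ/IL-34/FICZ and 14781 in the Jag1 only sample. The 3 samples with TGFβ, IL-34 and Jag1 but no FICZ were thus the lowest, and the Jag1 only sample the highest, of the 11. Gpnmb fell with Jag1 (log2 fold change −2.74, SE 0.29, adjusted p = 0.000554) from 4517 ± 878 (SD, n = 2) to 684 ± 156 (SD, n = 3), and rose with FICZ in its presence (log2 fold change 3.23, SE 0.26, adjusted p = 4.58e-05) to 6411 ± 1590.5 (SD, n = 3), 9.37-fold. Both calls held in every fit without a sample (5 and 6) and in all 10 other settings. The FICZ effect was higher with Jag1 than without it by 2.09 on the log2 scale (interaction, SE 0.41, adjusted p = 0.0431). That call was lost without any 1 of the 8 samples outside TGFβ/IL-34/FICZ (up to an adjusted p of 0.249), without the filter, under array weights and with the authors' experiment code as a term.

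Cd68, the macrosialin of macrophage endosomes and lysosomes (GRCm39 chr11:69555037-69557067, minus strand), followed the same order. It had 634 and 639 in TGFβ/IL-34, 322, 314 and 244 with Jag1, 1296, 1107 and 1120.3 with both, 1537 and 957 with FICZ and 1796 in the Jag1 only sample. Again the 3 TGFβ/IL-34/Jag1 samples lay under all others. It fell with Jag1 (log2 fold change −1.13, SE 0.23, adjusted p = 0.0165) and rose 4.01-fold with FICZ in its presence (log2 fold change 2.01, SE 0.21, adjusted p = 0.000168). The fall was lost without TGFβ/IL-34 replicate 1 or 2 or TGFβ/IL-34/Jag1 replicate 3 (up to an adjusted p of 0.156), and the rise held in all 6 fits without a sample. For both stimuli against TGFβ/IL-34 the means were 1174 ± 105 (SD, n = 3) and 637 ± 3.22 (SD, n = 2), which was not called (adjusted p = 0.0608).

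The other 4 membrane genes passed in no comparison. Lamp1 and Lamp2, the main glycoproteins of the limiting membrane, ranged over 1.99-fold and 1.51-fold among the 11 samples and were called in no comparison. Cd63, a tetraspanin of late endosomes, ranged from 4095 to 14597, lowest in the 2 TGFβ/IL-34 samples, and was not called either. Mcoln1, the calcium channel TRPML1, went from 1374, 943 and 991 to 722, 663 and 695 in FICZ with Jag1, without overlap (log2 fold change −0.65, SE 0.23, adjusted p = 0.0796).

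**Figure D4:**
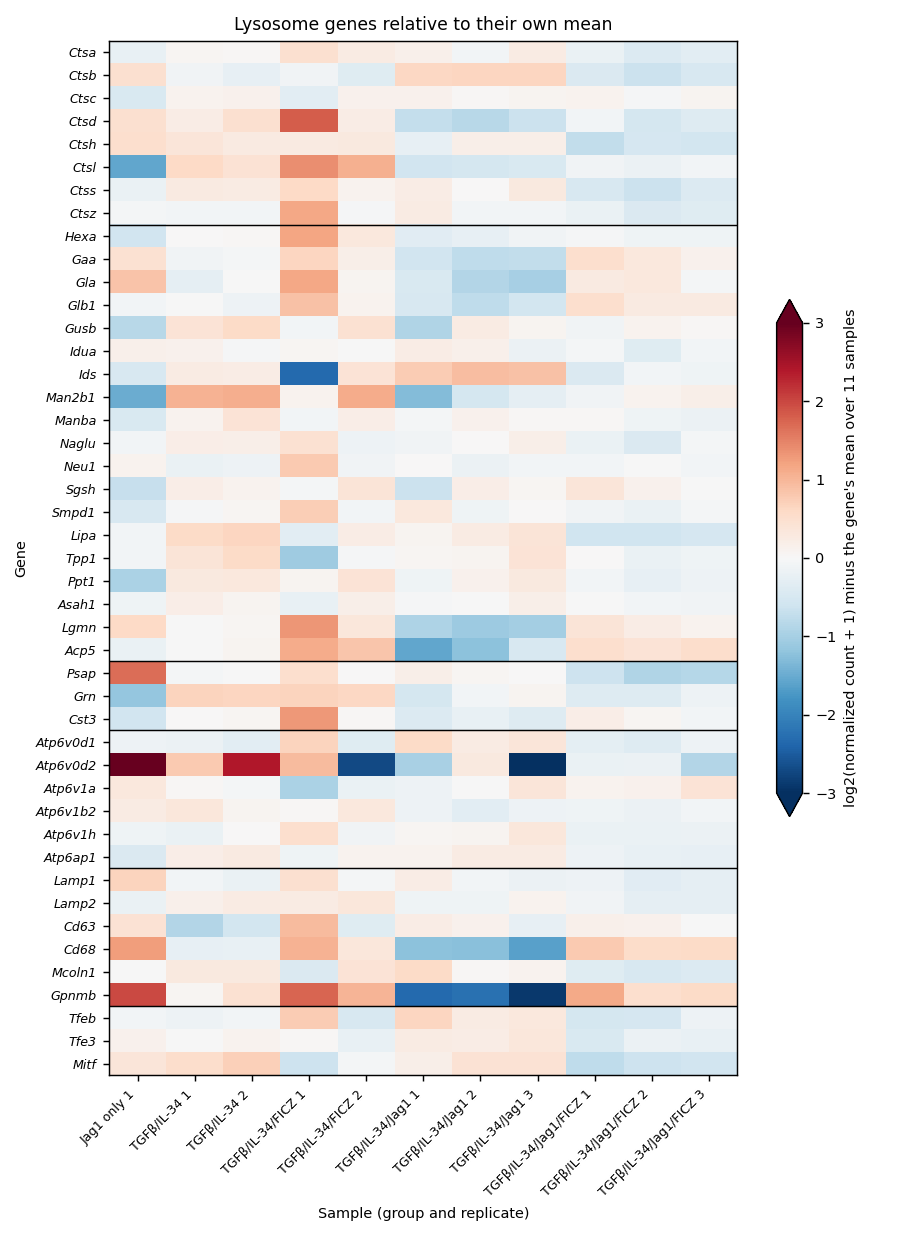
Rows are the 45 tested members in 6 sets divided by black lines, columns the 11 samples, and colour the log2(normalized count + 1) of a gene minus its mean over the samples, with the scale cut at 3 in each direction. Gpnmb and Cd68 are lowest in the 3 TGFβ/IL-34/Jag1 samples, and TGFβ/IL-34/FICZ replicate 1 differs from replicate 2 in Ctsd, Ids and Cst3.

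The MiT/TFE factors all stood lower with FICZ when Jag1 was present, and Mitf and Tfe3 fell. Mitf went from 192, 231 and 232 to 101, 111 and 114 (log2 fold change −0.996, SE 0.23, adjusted p = 0.0143), Tfe3 from 1831, 1792 and 1941 to 1115, 1362 and 1305 (log2 fold change −0.56, SE 0.14, adjusted p = 0.0222) and Tfeb from 1268, 957 and 1011 to 566, 574 and 726 (log2 fold change −0.79, SE 0.28, adjusted p = 0.0836). In none of the 3 did the groups overlap, which was so for 45.1% of all tested genes. Mitf also fell with both stimuli together (log2 fold change −1.27, SE 0.26, adjusted p = 0.0246), from 247 and 281 in TGFβ/IL-34, and stood at 111 and 165 in TGFβ/IL-34/FICZ, where the difference was not called (adjusted p = 0.285). Tfe3 was called in none of the 6 fits without a sample (adjusted p 0.0517 to 0.11). Mitf was called in 2 of 6, those without TGFβ/IL-34/Jag1 replicate 1 or TGFβ/IL-34/Jag1/FICZ replicate 3 (up to 0.0629), and its call for both stimuli was lost in all 5 (up to 0.218).

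In the Jag1 only culture, which had GM-CSF but neither TGFβ nor IL-34, the single sample allows no test. Its value was above the other 10 samples in 6 of the 45 members (background 20.1% of tested genes) and below them in 11 (background 18.1%). Psap stood at 67343, 2.24-fold above the next sample, Atp6v0d2 at 456.5, 2.44-fold above, Gpnmb at 14781 and Cd68 at 1796, both 1.17-fold above, Lamp1 at 20392 and Ctsh at 8871. Lowest of the 11 were Ctsc, Ctsl, Hexa, Man2b1, Manba, Sgsh, Smpd1, Ppt1, Grn, Cst3 and Atp6ap1. Against the 3 TGFβ/IL-34/Jag1 samples, which differ from it by TGFβ and IL-34, it was above all in 15 members (background 37.9%) and below all in 24 (background 36.7%).

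Other genes of the pathway were taken from wider lists of lysosomal hydrolases, membrane proteins, pump subunits, lysosomal signalling and protease inhibitors, 154 genes of which 146 were tested. In FICZ with Jag1, 15 of them rose and 24 fell, beside 10.9% and 6.71% of all tested genes. The genes furthest down were Mcoln3 and Mcoln2, the relatives of Mcoln1, Igf2r, the receptor that delivers mannose-6-phosphate enzymes, Hyal1, a hyaluronidase, and Tfec, the fourth MiT/TFE gene. Igf2r fell (log2 fold change −2.51, SE 0.38, adjusted p = 0.00132), with 2558 ± 536 (SD, n = 3) without FICZ and 467 ± 199 (SD, n = 3) with it. Mcoln2 (log2 fold change −2.65, SE 0.36, adjusted p = 0.000781) had means of 517 ± 119.5 (SD, n = 3) and 84.4 ± 31.9 (SD, n = 3) and Tfec (log2 fold change −2.17, SE 0.25, adjusted p = 0.000305) of 213 ± 38.2 (SD, n = 3) and 46.1 ± 1.81 (SD, n = 3). Hyal1 fell from 209.6 ± 44.9 (SD, n = 3) to 43 ± 9.77 (SD, n = 3), and Mcoln3 from 49.1 ± 32 (SD, n = 3) to 1.77 ± 1.57 (SD, n = 3), where its mean lay under the limit of 3 reads.

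Those furthest up were mostly protease inhibitors. Cst7, cystatin F, an inhibitor of cathepsin C and L in myeloid cells, rose (log2 fold change 4.98, SE 0.31, adjusted p = 1.02e-05), with 20.5 ± 2.88 (SD, n = 3) normalized counts without FICZ and 691 ± 203 (SD, n = 3) with it. Serpinb1a, an inhibitor of neutrophil serine proteases, did so as well (log2 fold change 4.21, SE 0.40, adjusted p = 0.000106), with means of 62.8 ± 31.8 (SD, n = 3) and 1097 ± 146 (SD, n = 3). Ctsg, cathepsin G, a serine protease of neutrophil granules rather than a lysosomal cathepsin, rose by 4.24 on the log2 scale. Stfa3 rose from 0.703 ± 1.22 (SD, n = 3), under the limit of 3 reads, to 32.1 ± 15.6 (SD, n = 3) and Stfa2 from 24.1 ± 23.5 (SD, n = 3) to 191 ± 83.1 (SD, n = 3), but stefin A genes are near-identical copies among which reads may be split. Of the 15 further pump genes tested, 1 fell, Tcirg1, the a3 subunit (log2 fold change −0.88, SE 0.17, adjusted p = 0.00466).

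In Jag1 without FICZ, 3 genes of the wider lists rose and 8 fell, together 7.53% of the 146 beside 6.6% of all tested genes. They were led by Galc, galactosylceramidase (log2 fold change 2.10, SE 0.28, adjusted p = 0.00184), upward and by the endolysosomal ion channel Tpcn1 (log2 fold change −3.45, SE 0.36, adjusted p = 0.000533) and the nuclease Pld4 (log2 fold change −3.89, SE 0.70, adjusted p = 0.00902) downward. Creg1, Cd81 and Cst7 fell and Laptm4b and Cstdc4 rose as well. With both stimuli 7 rose and 6 fell, beside 3.12% and 1.37% of all tested genes. In Jag1 with FICZ 0 rose and 7 fell, beside 1.41% and 0.603%, the furthest being Creg1 (log2 fold change −1.54, SE 0.28, adjusted p = 0.025). No gene of the wider lists was called for FICZ without Jag1. The interaction, called in 1.39% of all tested genes, was called for 2 of the 146, Tpcn1 (log2 fold change 2.82, SE 0.51, adjusted p = 0.0382) and Cst7 (log2 fold change 2.52, SE 0.49, adjusted p = 0.043).

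Markers of other cells moved with FICZ in the Jag1 cultures, and their part in the lysosome results was not tested. The summed normalized counts of 13 granulocyte progenitor genes were 10625 to 15657 with FICZ and 322 to 411 without it, with 11 of 13 called higher. Those of 12 mast cell and basophil genes were 10276 to 13768 against 1846 to 2983 (6 of 7 tested higher), with Fcer1a at 0 in all 6 samples. For 8 cycling genes the sums were 14173 to 14635 against 3001 to 4620 (8 of 8 higher). The 15 stromal genes summed to 17335 to 19665 against 916 to 2056 (4 of 12 tested higher), with Dcn and Lum at 0 in all 11 samples. With FICZ most of that sum was Thy1, at 12188 to 16084 against 177 to 284, while the collagen gene Col1a1 was at 222 to 1345 against 84.1 to 369 and at 0 to 3.84 in the 4 samples without Jag1. Macrophage genes ran the other way, with 7 of 11 lower in FICZ with Jag1 and sums of 13509.9 to 23160.2 against 35871 to 72152, and 4 of 10 Langerhans cell genes were lower, with sums of 92223 to 156135 against 348701 to 363348. The 10 osteoclast genes summed to 12577 to 15986 with FICZ and 7161 to 7534 without it (2 higher and 2 lower of 7 tested), with Calcr at 0 in all 11 samples. FICZ without Jag1 called none of these genes, beside 0.0229% of all tested genes. The TGFβ/IL-34/FICZ sums were 4696 to 9781 for granulocyte progenitor, 9175 to 12992 for mast cell and basophil and 10321 to 11501 for cycling genes. They were 15714 to 29302 for macrophage, 100799 to 114097 for Langerhans cell and 7809.5 to 11563 for osteoclast genes. Stromal genes summed to 4746 to 12905 there, against 1394 to 2027 in TGFβ/IL-34. Only the osteoclast range overlapped that of TGFβ/IL-34.

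In Jag1 without FICZ the same sums moved less in most lists. The granulocyte progenitor genes were at 682 to 2124 in TGFβ/IL-34 (2 of 13 lower with Jag1), the mast cell and basophil genes at 6279 to 6660.1 (4 of 7 lower) and the cycling genes at 7221 to 8456 (6 of 8 lower). Macrophage genes were at 41647 to 42988 in TGFβ/IL-34, with 5 of 11 higher and 2 lower with Jag1. Of the stromal genes 6 of 12 were higher and 1 lower with Jag1. Langerhans cell genes summed to 181440 to 183068 in TGFβ/IL-34 and 348701 to 363348 with Jag1 (2 of 10 higher). Osteoclast genes summed to 9568 to 10194 in TGFβ/IL-34 and 7161 to 7534 with Jag1 (1 higher and 1 lower of 7 tested). How far these differences contribute to the falls of Gpnmb, Cd68 and Lgmn was not tested.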

How the data were processed

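The authors used salmon with Ensembl GRCm39 transcripts, collapsed the estimates to genes and scaled them with DESeq2. The versions are not given in the sources used here. The deposited values are a signal per gene (normalized counts, not whole numbers), so no count model was fitted. Within 0.1 steps, 94 to 99.2% of low values of 1007 single-transcript genes were whole multiples of 1 read, against 52.6 to 59.5% over all genes. Whole reads were therefore not recovered. The deposited sample sheet gives a condition and an experiment code per sample, of which the former matched in 11 samples and the latter in 10. All per-sample columns were mapped.

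Genes with at least 10 normalized counts in at least 2 samples were fitted with limma 3.58.1 in R 4.3.3 (trend, log2(value + 1), 1 mean per group over all 11 samples, 6 residual degrees of freedom, Benjamini-Hochberg over 13095 genes). Fold changes are on that log2 scale, which understates those of low genes. Summaries and plots used Python 3.11.15, numpy 2.4.6, pandas 2.3.3 and matplotlib 3.10.9, and the fit was tested on simulated data. Other settings tried were pseudocounts of 0.5 and 4, quantile normalization, dropping the filter, replicate number, experiment code or flow cell as a term, array weights, a fit of the compared groups alone, and leaving out each replicate. The authors' experiment code was added as a term after seeing the data. Same-numbered samples shared an experiment code in FICZ with Jag1, where their deviations from group means correlated at 0.153, 0.122 and 0.166 across genes, so the numbers pair them there. In Jag1 with FICZ same-numbered samples shared a code too, with correlations of 0.059 and 0.058. In the comparisons with TGFβ/IL-34 the correlations were under 0.1. There same-numbered samples had different codes, so the replicate term joined samples of different experiments. The members, lists and motifs were chosen with earlier results of these data known. All members that passed the test are named with their values, those with an adjusted p of 0.05 to 0.1 with that p, and of the wider lists up to 5 genes per direction and comparison with the largest change. Gene coordinates are from GENCODE vM39, and 21676 of 21860 genes matched it by identifier.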

Additional observations from a re-analysis of the deposited data

Results flagged for a closer look

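For Ctsb and Gpnmb the response to FICZ differed between cultures with and without Jag1 by the interaction term of the limma fit. In Ctsb the effect with Jag1 was below that without it by a log2 difference of −1.11 (SE 0.22, adjusted p = 0.0439), with effects of −1.16 and −0.05. In Gpnmb it was above by 2.09 (SE 0.41, adjusted p = 0.0431), with effects of 3.23 and 1.13. Both calls were lost without any 1 of the 8 samples outside TGFβ/IL-34/FICZ (adjusted p up to 0.291 for Ctsb and 0.249 for Gpnmb), and neither gene was called without the filter, under array weights or with the authors' experiment code as a term. The effect without Jag1 rests on 2 samples of TGFβ/IL-34/FICZ that stood apart from each other.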

How the results depend on the processing

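No member that passed reversed its direction under any setting. Array weights moved the number of members called to 18 for Jag1 without FICZ, 26 for both stimuli together, 23 for FICZ with Jag1, 0 for Jag1 with FICZ and 0 for the interaction (all tested genes 2627, 3558, 4123, 0 and 8, against 864, 587, 2312, 264 and 182). A fit of the compared groups alone gave 26 for both together and 0 for Jag1 with FICZ (all tested genes 3053 and 8). Quantile normalization gave 8 for both together and 1 for the interaction. The interaction count was also 0 without the filter, 1 under the replicate block, 1 with the experiment code of the labels and 0 with that of the authors' sheet (all tested genes 74, 204, 44 and 250). The replicate block changed the other counts to 7 for Jag1 without FICZ, 7 for both together, 15 for FICZ with Jag1 and 3 for Jag1 with FICZ. It left FICZ without Jag1 at 0. Leaving out 1 sample gave 1 to 6 calls for Jag1 without FICZ, 0 to 30 for FICZ without Jag1, 0 to 1 for both together, 9 to 12 for FICZ with Jag1, 1 to 28 for Jag1 with FICZ and 0 to 24 for the interaction. The highest counts for the contrasts of TGFβ/IL-34/FICZ (30, 28 and 24) came without its replicate 2, when its lone sample was assumed to vary like the other groups. The cause of these shifts was not tested. Of 755 values for single members, 582 kept their side of the threshold, 126 lost a call and 47 gained one. The 755 include pairs of member and comparison without a call in the main fit, which cannot lose one. Of the 33 called pairs, array weights lost 6. Leaving out a sample lost more. Without TGFβ/IL-34/Jag1/FICZ replicate 1, 11 called pairs kept the call and 14 lost it, and without TGFβ/IL-34/Jag1 replicate 2, 15 kept it and 9 lost it. For Ctsk, with values near the limit of 3 reads (2.69 to 3.48), differences were not detectable at this depth.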
